A study of Mus musculus with 21 samples.

Results

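The 37 genes described here encode the enzymes that build sterols and fatty acids, the proteins that control these pathways and proteins that move cholesterol. They were chosen by gene symbol, by a rule that names no measured value but was set with earlier results of these data known: 8 enzymes of the mevalonate pathway, 11 enzymes that turn its product into cholesterol, 5 genes of the SREBP control system, 5 genes of sterol transport and the liver X receptor, and 8 enzymes of fatty acid synthesis and desaturation. All 37 were found among the 22483 genes of the deposited tables, and 34 passed the filter on low counts that left 12360 tested genes. The 3 that did not pass were the cholesterol exporters Abca1 and Abcg1 and the ubiquitin ligase Mylip. Their highest values in any library were 0.130, 0.534 and 0.259 CPM (counts scaled to a normalised library size, as described below). They were at 0 in 17, 6 and 10 of the 21 libraries.

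The RNA came from MEDEP cells of the line BRC5, an erythroid progenitor line that was made from mouse embryonic stem cells, so that all 21 libraries represent 1 cell line. Growing cells, kept in ascorbic acid, an insulin, transferrin and selenium supplement, alpha-TG, stem cell factor (SCF) and dexamethasone (dex), formed the 0 h group. For the groups at 12, 24, 36, 48 and 72 h, SCF and dex had been removed and erythropoietin (Epo) added at 4 U/ml to start red cell differentiation. The 7th group had 12 h of Epo together with succinyl acetone (SA), which blocks heme synthesis. Each group had 3 libraries of polyadenylated RNA, which the series' design text calls biological replicates. The time course shows how the RNA of each gene changed during differentiation, and the SA libraries show how it differed at 12 h while heme synthesis was blocked. All 8 erythroid markers, among them Alas2, Slc4a1 and Klf1, were above 0 in every library, and their summed level lay between 163100 and 430600 CPM at 72 h, against 464 to 583 CPM at 0 h.

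Cholesterol is made from acetyl-CoA through mevalonate and farnesyl pyrophosphate, which also feeds ubiquinone, dolichol and the lipid anchors of proteins. The transcription factors SREBP-2 and SREBP-1, encoded by Srebf2 and Srebf1, turn on the enzymes of sterol and fatty acid synthesis when membranes hold little sterol. Scap carries them out of the endoplasmic reticulum, and Insig1 and Insig2 hold Scap back when sterol is plentiful. The red cell membrane is rich in cholesterol, and maturing erythroid cells lose the endoplasmic reticulum in which most of these enzymes sit.

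The libraries held 16695756 to 39316031 estimated counts. Levels are given on 2 scales: CPM, which TMM normalisation scales so that the middle of the tested genes stays at about the same level in every library, and the authors' deposited TPM, which are per transcript length and sum to the same total in every library. The TMM factors that multiply library size ran from 0.423 to 1.70, so a CPM value is not a share of its library's counts. The scales parted after 24 h. Over all tested genes the median log2 change between 36 and 24 h was -0.03 in CPM and -1.45 in log2(TPM + 1), and that between 72 and 0 h was -0.13 and -2.57. Globin RNA held 79.9% to 89.2% of all TPM at 72 h, against 0.127% to 0.203% at 0 h. Of the estimated counts, on which the tests were run, it held 31.7% to 37% at 72 h, against 0.0467% to 0.0752% at 0 h. A gene is therefore called higher or lower here relative to the median tested gene, by edgeR's quasi-likelihood test with a Benjamini-Hochberg adjusted p of at most 0.05 over all tested genes. Log2 changes are given ± SE for 3 libraries against 3, with the spread estimated over all 7 groups together. In bulk RNA, fewer cells of a type and less RNA per cell cannot be told apart.

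Some libraries stood apart. Replicate 1 at 36 h held stromal markers, such as Col3a1 and Fn1, at a summed 41.6 CPM, against 0.193 and 0.334 CPM in the other 2 at 36 h and at most 1.77 CPM in any other library. It was the highest of its group for 15 of the 19 mevalonate and sterol enzymes, and without it 12 members were called higher at 36 h versus 24 h, against 14 with it. Of all tested genes 3994 of 12633 were higher without it, against 4219 of 12360 with it. Replicate 2 at 24 h was highest of its group for 18 of the 19 enzymes, and replicate 2 at 48 h was lowest for 18. Without replicate 2 at 48 h, 3 members were higher and 29 lower at 48 h versus 36 h, as with it. All tested genes then had 2117 higher and 3498 lower of 12703, against 2476 and 3677 of 12360 with it. Replicate 3 at 48 h and replicate 3 at 72 h lay farthest from their groups in a chi-square comparison of counts, in which abundant genes can weigh most. Per gene their pairs gave 122 to 138 and 192 to 244, against 21.1 and 77.4 for the remaining pairs. By Spearman correlation the pairs of replicate 3 at 48 h gave 0.984 and 0.987, against 0.99. At 72 h it was replicate 1 that stood apart by this measure, with 0.975 and 0.973, against 0.985 for replicates 2 and 3. The 8 erythroid markers summed to 283500 CPM in replicate 3 at 48 h, against 184000 and 194700 CPM in the other libraries there. In replicate 3 at 72 h they summed to 430600 CPM, against 163100 and 203500 CPM. The globin genes Hba-a1 and Hbb-bt reached 266800 and 116700 CPM, against at most 29050 CPM for any other of the 8. All globin genes together held 26% of the counts in replicate 3 at 48 h, against 27.8% and 28.7%. In replicate 3 at 72 h they held 37%, against 31.7% and 36.9%. Replicate 3 at 48 h was highest of its group for 16 of the 19 enzymes. Without it 3 members were higher and 30 lower at 48 h versus 36 h, and without replicate 3 at 72 h 1 was higher and 29 lower at 72 h versus 48 h. The first of these fits had 2515 of all 12659 tested genes higher and 3551 lower. The second had 2977 of 12602 higher and 4238 lower. Of 8 megakaryocyte markers 4, Itga2b, Gp1ba, Gp6 and Gp9, were above 0 in every library. The summed level of the 8 was 17.6 to 22.4 CPM at 0 h and 1111 to 1414 CPM at 36 h. At 48 h it was 1628 to 1745 CPM. Most of the later sums was Itga2b, which reached 1629 CPM, against at most 129, 45.05 and 18.4 CPM for Gp6, Gp9 and Gp1ba. Ppbp was at 0 throughout, and Pf4 and Vwf did not exceed 0.195 CPM. Of other cell types, 7 mast cell markers summed to 33.7 to 47.3 CPM at 0 h, 5.70 to 7.42 CPM at 24 h and 32.7 to 37.1 CPM at 72 h, and 8 macrophage markers to 0.508 to 0.630 CPM at 0 h, 2.17 to 3.09 CPM at 24 h and 8.94 to 11.5 CPM at 72 h. Among the macrophage markers Csf1r reached 10.5 CPM and Cd68 1.58 CPM, and the others at most 0.389 CPM. The part of these differences in the results was not tested.

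Most sterol genes climbed through the first day and declined after 36 h. All 34 tested members varied over the course, as did 97.6% of all tested genes. The 19 mevalonate and sterol enzymes together held 535, 547 and 555 CPM at 0 h, 849, 921 and 962 at 12 h, 2503, 2898 and 2585 at 24 h, 4732, 4259 and 4064 at 36 h, 2273, 1661 and 2581 at 48 h, and 782, 645 and 823 at 72 h. No library at 24, 36 or 48 h was as low as any at 0 or 12 h. The libraries at 72 h lay above those at 0 h and below those at 12 h. On the TPM scale the same sum was highest at 24 h: it was 591, 612 and 664 TPM at 0 h, 1012, 1105 and 1161 at 12 h, 2495, 2709 and 2573 at 24 h, 1180.0, 945 and 1071 at 36 h, 302, 209.8 and 506 at 48 h, and 83.1, 39.1 and 84.2 at 72 h.

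**Figure D1:**
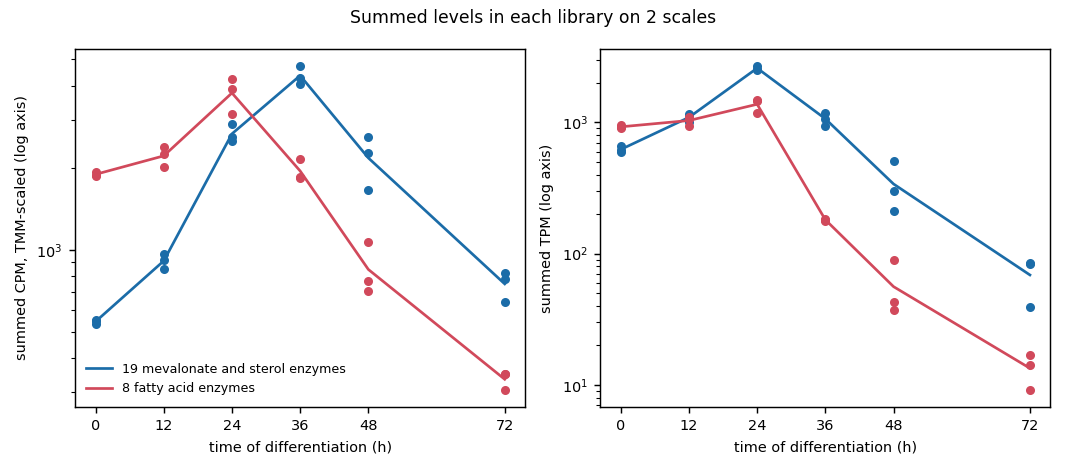
Summed level of the 19 mevalonate and sterol enzymes and of the 8 fatty acid enzymes in each library (points, 3 per time; lines join the means) against hours of differentiation, as TMM-scaled CPM on the left and as TPM on the right, both on log axes. The enzyme sum reached 4064 to 4732 CPM at 36 h, while on the TPM scale both sums were highest at 24 h.

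At 12 h versus 0 h 25 of the 34 tested members were higher and 4 were lower, beside 25.3% and 27.6% of all tested genes. Without centring, log2(TPM + 0.1) gave 15 higher and 2 lower, beside 1596 and 2128 of the 9525 genes with a mean of at least 1 TPM. Log2(TPM + 1) with no level filter gave 16 higher and 3 lower, beside 2384 and 3292 of 16772 genes. At 24 h versus 12 h 26 were higher and 2 lower, beside 19.1% and 22% of all tested genes. The next step, 36 h versus 24 h, split the genes: 14 were higher and 12 lower, beside 34.1% and 39%. In log2(TPM + 1) without centring 33 were lower and 0 higher, beside 8486 and 410 of the 9525 genes. The 14 that were higher were 11 mevalonate and sterol enzymes and 3 SREBP system genes, while 7 of the 12 that were lower were fatty acid enzymes. At 48 h versus 36 h 3 members were higher and 29 lower, beside 20% and 29.7% of tested genes, and at 72 h versus 48 h 1 was higher and 29 lower, beside 24.7% and 34.5%. The median log2 change of the 34 members over these 5 steps was 0.54, 1.11, 0.07, -1.08 and -1.30, beside -0.01, 0.00, -0.03, -0.07 and -0.05 for all tested genes. The first day as a whole, 24 h versus 0 h, had 28 members higher and 4 lower, beside 32.1% and 33.9% of tested genes. From the 24 h level to the end, 72 h versus 24 h, 3 were higher and 31 lower, beside 40.7% and 45.6%. In log2(TPM + 1) without centring 0 members were higher in any comparison of a time after 24 h, beside 246 to 501 of the 9525 genes. Each rise given below for those times is thus one in CPM. These comparisons share libraries and are not independent of each other.

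**Figure D2:**
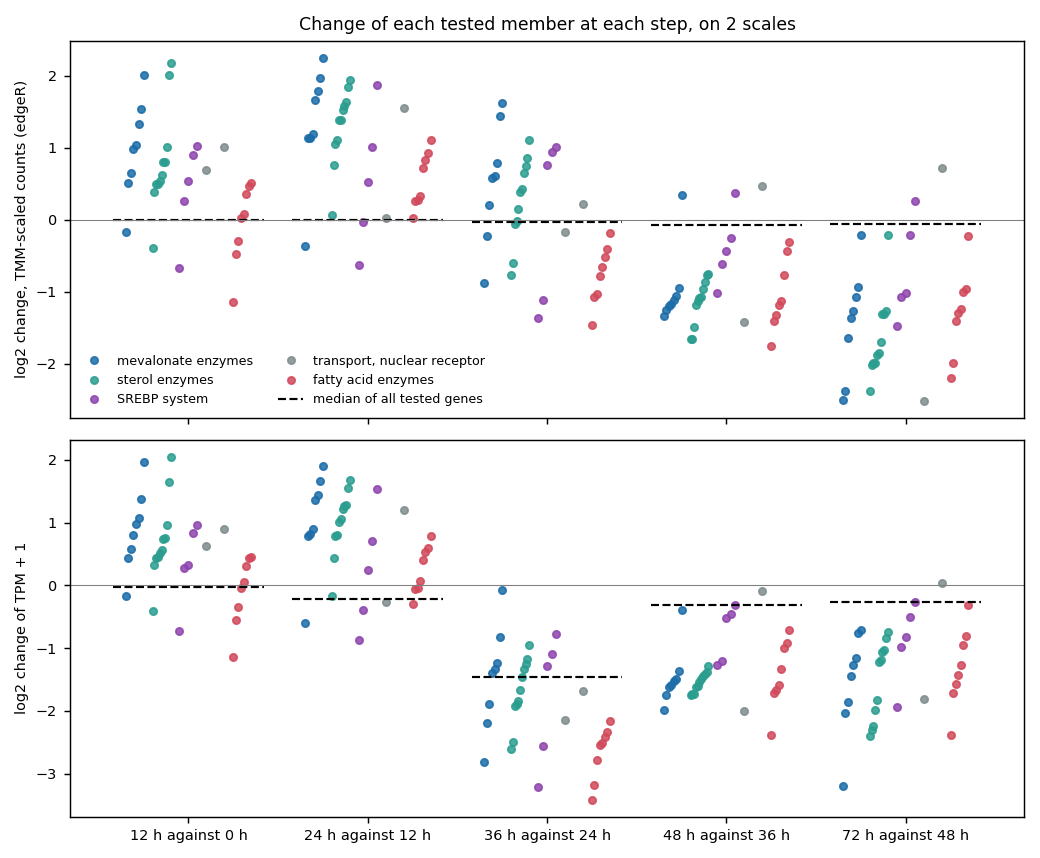
Log2 change of each of the 34 tested members at each of the 5 steps of the course, by role (colours), from TMM-scaled counts above and from log2(TPM + 1) below; dashed lines mark the median of all tested genes. The members lie mostly above that median in the first 2 steps and below it in the last 2, and at 36 h versus 24 h the median itself is -0.03 on the upper scale and -1.45 on the lower.

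**Figure D3:**
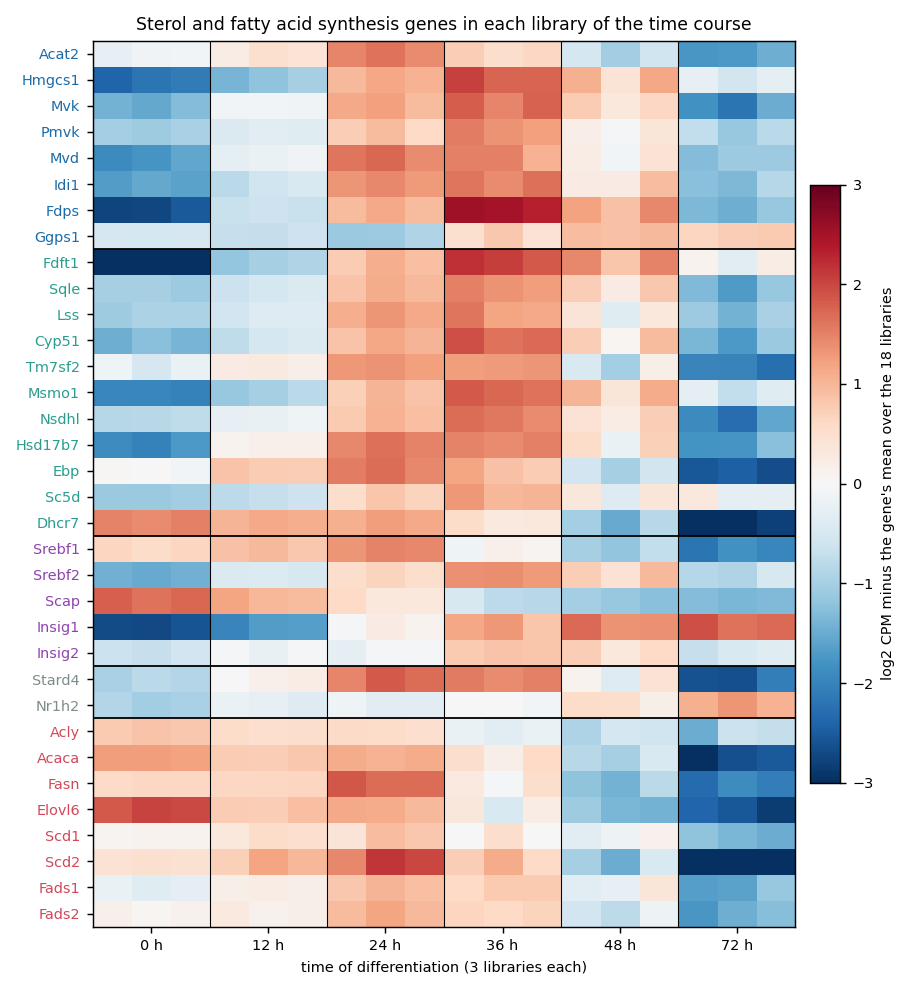
Level of the 34 tested members in each of the 18 libraries of the time course, as log2 CPM minus the gene's mean over these libraries (colours end at -3 and 3); rows are grouped by role and columns run from 0 to 72 h with 3 libraries each. Most mevalonate and sterol enzymes are low at 0 h, high at 24 and 36 h and low again at 72 h, Insig1 and Nr1h2 end high, and Scap and Dhcr7 start high and end low.

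Among the 8 mevalonate enzymes, Hmgcs1 makes HMG-CoA, the direct precursor on the way to mevalonate. It had 25.2, 29.5 and 31.1 CPM at 0 h, 50.7, 58.1 and 67.6 at 12 h, 262, 299.7 and 277 at 24 h, 556, 450.1 and 448 at 36 h, 281, 177 and 297 at 48 h, and 113, 91.2 and 110.2 at 72 h. Its 3 libraries at 24 h were all above those at 12 h, and those at 36 h all above those at 24 h. The log2 change was 1.04 ± 0.16 at 12 h versus 0 h, 2.25 ± 0.16 at 24 h versus 12 h, the largest of the 34 members at that step, and -0.95 ± 0.15 at 48 h versus 36 h (adjusted p = 1.05e-05, 1.97e-09 and 3.69e-05). The thiolase Acat2, which makes acetoacetyl-CoA, peaked earlier and was already lower at 36 h, with 27.9 ± 2.20 CPM, against 51.0 ± 4.14 CPM at 24 h (-0.88 ± 0.11).

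Fdps, the synthase of farnesyl pyrophosphate (chr3:89093588-89101959, GRCm38, minus strand, by GENCODE M21), was with Scd2 one of the 2 most abundant members per transcript length at 24 h. It had 31.4, 32.0 and 36.7 CPM at 0 h, 133, 137 and 133 at 12 h, 409, 465 and 408 at 24 h, 1224, 1192 and 1058 at 36 h, 488, 389 and 579 at 48 h, and 83.5, 76.3 and 96.7 at 72 h. The groups did not overlap between neighbouring times. The log2 change was 1.44 ± 0.12 at 36 h versus 24 h, then -1.25 ± 0.12 at 48 h and -2.50 ± 0.12 at 72 h, each against the time before. On the TPM scale Fdps was already lower at 36 h, with 422 ± 34.6 TPM, against 748 ± 28.5 TPM at 24 h.

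The kinases Mvk and Pmvk and the decarboxylase Mvd turn mevalonate into isopentenyl pyrophosphate, and Idi1 isomerises it. Mvk was the scarcest of the 8, with 17.4 ± 1.67 TPM at 24 h, and Idi1 the second most abundant, with 349.5 ± 9.52 TPM. At 24 h versus 0 h the log2 changes were 2.52 ± 0.13 for Mvk, 1.79 ± 0.11 for Pmvk, 3.33 ± 0.15 for Mvd and 2.96 ± 0.17 for Idi1. All 4 were lower again in each of the last 2 steps, with log2 changes at 72 h versus 48 h between -2.38 for Mvk and -1.07 for Pmvk.

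Ggps1, which extends farnesyl to geranylgeranyl pyrophosphate for the anchoring of proteins, took another course. It had 32.9, 32.4 and 32.7 CPM at 0 h, 29.1, 28.2 and 30.3 at 12 h, 21.7, 21.8 and 24.9 at 24 h, 64.9, 82.2 and 62.8 at 36 h, 89.2, 86.3 and 91.1 at 48 h, and 72.7, 78.1 and 80.5 at 72 h. The lowest libraries were those at 24 h, where the other mevalonate enzymes were high, and the libraries at 36, 48 and 72 h were all above those of the first day. At 24 h versus 0 h its log2 change was -0.52 ± 0.09 and at 72 h versus 24 h it was 1.76 ± 0.09 (adjusted p = 2.16e-05 and 1.1e-13). On the TPM scale the direction turned, with 9.005 ± 2.31 TPM at 72 h, against 22.2 ± 2.67 TPM at 24 h, a log2(TPM + 1) change of -1.24 beside a median of -2.20 for all tested genes.

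Of the 11 enzymes from squalene to cholesterol, 9 were higher and 1 lower at 12 h versus 0 h, beside 25.3% and 27.6% of all tested genes. At 24 h versus 12 h 10 were higher, beside 19.1%. All 11 were lower at 48 h versus 36 h and 10 at 72 h versus 48 h, beside 29.7% and 34.5%. Fdft1, the squalene synthase that commits farnesyl pyrophosphate to sterols (chr14:63145150-63179578, GRCm38, minus strand), had the largest rise of the first day among the members. It had 9.37, 9.67 and 9.18 CPM at 0 h, 38.4, 43.1 and 46.3 at 12 h, 147, 182 and 160.2 at 24 h, 390.2, 361 and 305 at 36 h, 234, 154 and 239.5 at 48 h, and 92.4, 68.7 and 100.2 at 72 h. The groups up to 36 h did not overlap. Its log2 change was 4.11 ± 0.17 at 24 h versus 0 h (adjusted p = 1.96e-14), and 3.21 ± 0.16 at 72 h versus 0 h, where in log2(TPM + 1) it was -0.47.

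Sqle, the squalene epoxidase, is a flux-controlling enzyme of the pathway. It had 64.1, 64.7 and 60.6 CPM at 0 h, 82.6, 89.0 and 94.7 at 12 h, 234, 279 and 252 at 24 h, 367, 328 and 308 at 36 h, 216, 152 and 226 at 48 h, and 51.1, 39.7 and 58.6 at 72 h. Neighbouring times did not overlap, and the libraries at 72 h lay below all at 0 h. The log2 change was 0.49 ± 0.13 in the first 12 h, 1.52 ± 0.13 in the next and -1.99 ± 0.14 between 48 and 72 h. The first of these was not called in the 3 limma fits of uncentred TPM (adjusted p = 0.131, 0.199 and 0.211). Lanosterol synthase Lss and lanosterol demethylase Cyp51 had log2 changes of 2.17 ± 0.16 and 2.39 ± 0.18 at 24 h versus 0 h. They were -1.30 ± 0.16 and -2.01 ± 0.18 at 72 h versus 48 h.

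Msmo1, Nsdhl and Hsd17b7 act one after another to remove methyl groups from the sterol ring. At 24 h versus 0 h their log2 changes were 2.85 ± 0.16, 1.72 ± 0.13 and 3.40 ± 0.16. Msmo1 was the most abundant sterol enzyme per transcript length at 24 h, with 283 ± 20.5 TPM, against 23.9 ± 1.08 TPM for Hsd17b7 and 20.5 ± 0.391 TPM for the sterol reductase Tm7sf2. Msmo1, Nsdhl and Hsd17b7 were lower in both of the last steps, with log2 changes of -1.31, -2.37 and -1.99 at 72 h versus 48 h.

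The last enzymes of the route behaved less alike. Dhcr7, the reductase that makes cholesterol from dehydrocholesterol (chr7:143823145-143848410, GRCm38, plus strand), was highest before differentiation. It had 114, 108 and 116 CPM at 0 h, 82.2, 89.3 and 85.9 at 12 h, 85.3, 95.7 and 89.5 at 24 h, 59.0, 49.7 and 50.2 at 36 h, 20.1, 14.2 and 22.6 at 48 h, and 5.13, 4.47 and 5.81 at 72 h. The libraries at 12 and 24 h overlapped and lay below those at 0 h, and each later group lay below the one before it. The log2 change was -0.39 ± 0.11 at 12 h versus 0 h, 0.07 ± 0.11 at 24 h versus 12 h (not called, adjusted p = 0.644) and -4.13 ± 0.14 at 72 h versus 24 h. The first of these was not called in the 3 limma fits of uncentred TPM (adjusted p = 0.0718, 0.205 and 0.116). The sterol isomerase Ebp rose to 45.6 ± 3.77 CPM at 24 h, against 15.4 ± 0.708 CPM at 0 h, and was lower from 36 h on, down to 2.66 ± 0.191 CPM at 72 h (log2 change -4.10 ± 0.14 against 24 h). Sc5d, a sterol desaturase, had 57.9 ± 15.0 CPM at 72 h and 67.2 ± 17.8 CPM at 48 h, and was the 1 enzyme of the 19 not called in that step (-0.21 ± 0.16, adjusted p = 0.272). It was called lower there without replicate 2 at 48 h (-0.43) and without replicate 1 at 72 h (-0.45).

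**Figure D4:**
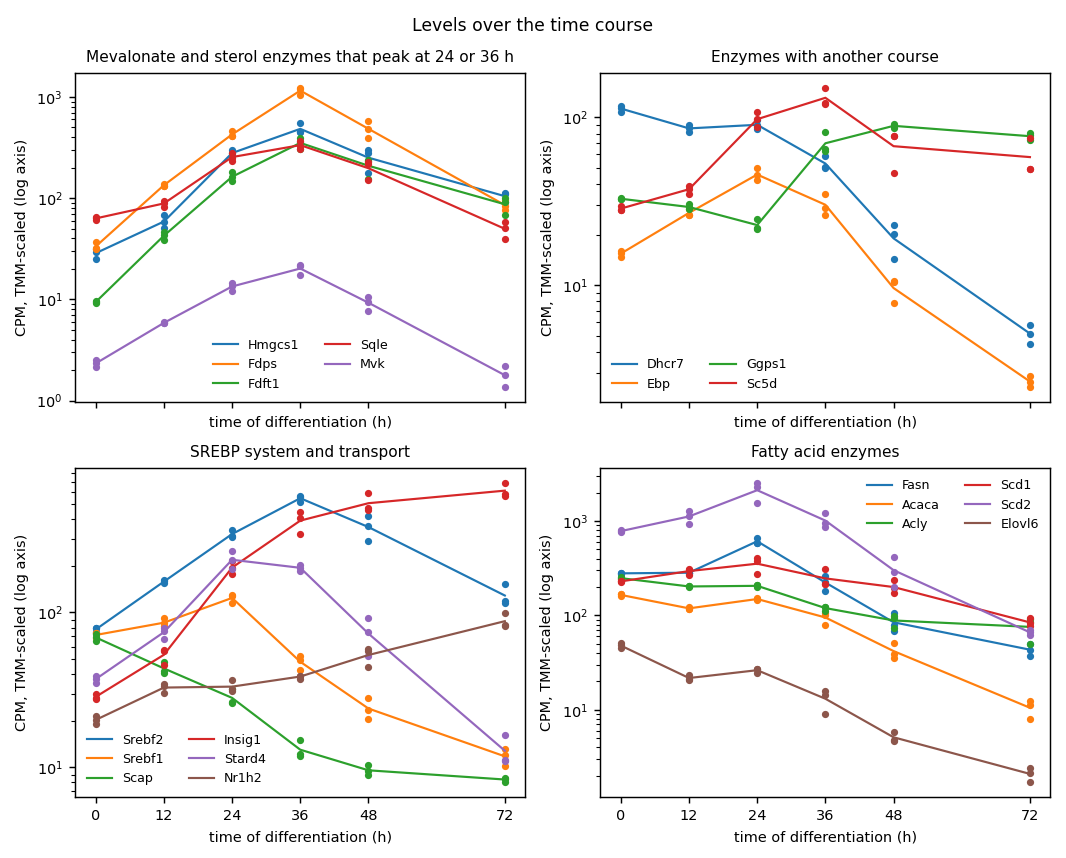
CPM (TMM-scaled, log axes) of selected members in each library (points, 3 per time) against hours of differentiation, with lines through the group means, in 4 panels by role. Fdps, Hmgcs1, Fdft1, Sqle and Mvk rise to 36 h and decline, Dhcr7 is highest at 0 h and lowest at 72 h, Ggps1 is lowest at 24 h, Insig1 stays high after 36 h, and Fasn and Scd2 are highest at 24 h.

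By the CPM means, 12 of the 19 enzymes were highest at 36 h, 5 at 24 h, 1 at 48 h (Ggps1) and 1 at 0 h (Dhcr7). By the TPM means 17 were highest at 24 h and 2 at 0 h (Ggps1 and Dhcr7). The time of the peak, 24 h or 36 h, thus depended on the scale. The fall after 36 h did not: 18 of the 19 enzymes were lower at 48 h versus 36 h, beside 29.7% of all tested genes. The median log2 change of the 19 was -1.12 in CPM and -1.54 in log2(TPM + 1), beside -0.07 and -0.31 for all tested genes. At 36 h versus 24 h the 19 had a median of 0.42 in CPM, beside -0.03 for all tested genes, but of -1.45 in log2(TPM + 1), the same as the median of all tested genes. Among the 9525 genes with a mean of at least 1 TPM the median in log2(TPM + 1) was lower, at -1.84.

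The upstream sequences of 6 of these genes are shown because 4 of them, Hmgcs1, Mvk, Mvd and Nsdhl, rose together in the first day, while Ggps1 took its own course and Fasn stands for the fatty acid enzymes. Each line gives the 200 bases before the RefSeq gene start, from position -200 to -1 on the gene's strand, in GRCm38.p6. The windows lie at chr13:119690151-119690350 (plus strand), chr5:114444069-114444268 (plus strand), chr8:122443423-122443622 (minus strand), chrX:72918321-72918520 (plus strand), chr13:14063489-14063688 (minus strand) and chr11:120824548-120824747 (minus strand). Capitals mark 3 motifs on either strand: TCACNCCAC, a form of the sterol regulatory element; CCAAT, bound by NF-Y; and GGGCGG, bound by Sp1. In the Fasn sequence 2 CCAAT matches on opposite strands overlap.
Hmgcs1: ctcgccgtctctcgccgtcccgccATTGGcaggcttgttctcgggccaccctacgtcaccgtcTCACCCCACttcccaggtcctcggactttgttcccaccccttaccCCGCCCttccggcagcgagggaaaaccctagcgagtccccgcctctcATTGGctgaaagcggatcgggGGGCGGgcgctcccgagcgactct
Mvk: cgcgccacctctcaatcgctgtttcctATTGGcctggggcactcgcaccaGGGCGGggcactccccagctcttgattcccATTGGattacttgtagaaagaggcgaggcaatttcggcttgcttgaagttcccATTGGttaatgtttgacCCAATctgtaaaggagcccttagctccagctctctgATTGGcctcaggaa
Mvd: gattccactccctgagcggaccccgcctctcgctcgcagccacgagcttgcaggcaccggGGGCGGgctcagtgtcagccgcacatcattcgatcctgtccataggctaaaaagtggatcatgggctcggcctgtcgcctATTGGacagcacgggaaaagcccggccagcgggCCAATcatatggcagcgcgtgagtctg
Nsdhl: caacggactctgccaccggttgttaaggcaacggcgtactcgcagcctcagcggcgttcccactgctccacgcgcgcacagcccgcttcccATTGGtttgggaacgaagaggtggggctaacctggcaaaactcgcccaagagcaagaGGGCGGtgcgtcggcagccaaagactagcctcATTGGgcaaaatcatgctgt
Ggps1: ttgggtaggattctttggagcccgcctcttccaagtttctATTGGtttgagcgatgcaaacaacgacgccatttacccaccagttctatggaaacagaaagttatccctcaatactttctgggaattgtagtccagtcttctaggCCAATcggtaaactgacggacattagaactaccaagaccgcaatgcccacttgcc
Fasn: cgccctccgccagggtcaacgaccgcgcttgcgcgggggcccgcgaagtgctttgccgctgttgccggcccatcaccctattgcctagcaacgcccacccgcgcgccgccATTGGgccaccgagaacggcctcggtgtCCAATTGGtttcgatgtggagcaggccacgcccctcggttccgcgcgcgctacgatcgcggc
These windows held 2, 5, 2, 2, 2 and 3 CCAAT matches, and 2, 1, 1, 1, 0 and 0 GGGCGG matches, in the order printed.

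RefSeq windows from 250 bases before to 50 bases after the start were found for 29 of the 37 genes, the others being Abcg1, Fads1, Fdft1, Fdps, Scd1, Scd2, Sqle and Stard4. The exact letters TCACNCCAC occurred in 1 of these 29 genes, Hmgcs1, starting at position -137 on the gene's strand. They occurred in 1.39% of 9552 tested genes with a window and in 1.24% of all 32851 windows. CCAAT occurred in 22 of the 29 genes, beside 43.5% of 9552 tested genes with a window and 37.4% of all windows. GGGCGG occurred in 23 of the 29, beside 65.3% of those tested genes and 35.7% of all windows. The 29 include Abca1 and Mylip, which were not tested: Mylip held CCAAT and both held GGGCGG. A match is only a run of letters, and these windows differ in base composition, from 46.5% G and C for Ggps1 to 70.5% for Fasn among the 6 printed.

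Of the 5 SREBP system genes, 4 were higher and 1 lower at 12 h versus 0 h, beside 25.3% and 27.6% of all tested genes. At 24 h versus 0 h 4 were again higher and 1 lower, beside 32.1% and 33.9%. Srebf2, which encodes the main activator of the sterol enzymes, had 79.1, 75.0 and 79.0 CPM at 0 h, 159.8, 161 and 154 at 12 h, 309, 342 and 311 at 24 h, 556, 566 and 517 at 36 h, 359, 289.7 and 419 at 48 h, and 118, 115 and 153 at 72 h. Neighbouring groups did not overlap, and the peak lay at 36 h. Its log2 change was 1.03 ± 0.11, 1.02 ± 0.11 and 0.77 ± 0.11 over the first 3 steps and -0.62 ± 0.11 and -1.47 ± 0.12 over the last 2.

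Srebf1, which encodes the activator of fatty acid synthesis, peaked at 24 h. It had 73.2, 68.2 and 73.3 CPM at 0 h, 85.04, 91.5 and 81.3 at 12 h, 116, 129.9 and 127 at 24 h, 42.6, 52.1 and 49.5 at 36 h, 23.4, 20.5 and 28.1 at 48 h, and 10.2, 13.2 and 12.0 at 72 h. From 24 h on each group lay below the one before it, with log2 changes of -1.37 ± 0.11 at 36 h versus 24 h and -3.40 ± 0.13 at 72 h versus 24 h. Scap, the escort of both factors, was highest at 0 h. It had 72.7, 65.5 and 69.0 CPM at 0 h, 48.1, 41.99 and 40.6 at 12 h, 31.9, 26.3 and 26.1 at 24 h, 15.0, 12.3 and 11.8 at 36 h, 10.3, 9.52 and 8.88 at 48 h, and 8.56, 8.10 and 8.41 at 72 h. No library overlapped with one of an earlier time. It was lower at each step up to 48 h, with log2 changes of -0.66 ± 0.10, -0.63 ± 0.10 and -1.11 ± 0.11 over the first 3 and of -3.05 ± 0.11 over the whole course (adjusted p = 3.45e-16).

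Insig1, a target of SREBP-2 that retains Scap in the endoplasmic reticulum, stayed high after the enzymes had declined. It had 28.0, 27.8 and 29.9 CPM at 0 h, 46.1, 56.8 and 57.1 at 12 h, 176, 214 and 195 at 24 h, 406, 446 and 323 at 36 h, 591, 460.1 and 471 at 48 h, and 687, 562 and 585 at 72 h. The 3 groups from 0 to 24 h did not overlap with each other or with the later ones, and the libraries at 48 and 72 h overlapped. The log2 change was 2.77 ± 0.14 at 24 h versus 0 h, 1.01 ± 0.13 at 36 h versus 24 h and 4.42 ± 0.15 at 72 h versus 0 h, the largest rise of any member over the course. At 48 h versus 36 h it was higher (0.37 ± 0.13, adjusted p = 0.0186), a call lost without replicate 3 at 36 h (0.24, adjusted p = 0.137), without replicate 1 at 48 h (0.24, adjusted p = 0.146) and in log2(TPM + 1) with library medians subtracted (0.32, adjusted p = 0.0703). It was not called at 72 h versus 48 h (0.27 ± 0.13, adjusted p = 0.0737), but that step turned on the scaling: it was called higher by DESeq2 (0.41, adjusted p = 0.00536), with DESeq2 size factors in edgeR (0.41, adjusted p = 0.0103) and without replicate 1 at 48 h (0.38, adjusted p = 0.0186), and lower in log2(TPM + 1) without centring (-0.51, adjusted p = 0.0447). On the TPM scale it had 26.8 ± 1.97 TPM at 0 h, 142 ± 10.2 TPM at 24 h and 38.7 ± 14.0 TPM at 72 h, where limma on log2(TPM + 1) gave 0.45 against 0 h, not called. Insig2 was highest at 36 h in CPM, with 21.7 ± 0.548 CPM, against 11.3 ± 1.00 CPM at 24 h (log2 change 0.95 ± 0.10).

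Of the 5 transport and receptor genes 2 could be tested. Stard4, which carries sterol between membranes, had 35.2, 39.0 and 37.2 CPM at 0 h, 67.7, 76.3 and 79.9 at 12 h, 191, 248 and 218 at 24 h, 204, 184 and 195 at 36 h, 74.4, 52.5 and 92.3 at 48 h, and 11.2, 11.0 and 16.3 at 72 h. The libraries at 24 and 36 h overlapped and were above all others, and those at 72 h were below all others. Its log2 change was 2.56 ± 0.16 at 24 h versus 0 h and -2.51 ± 0.17 at 72 h versus 48 h. Nr1h2, the liver X receptor beta that senses oxidised sterols, had 20.3 ± 1.15 CPM at 0 h, 32.8 ± 2.12 CPM at 12 h and 87.9 ± 9.39 CPM at 72 h, and was the 1 member higher at 72 h versus 48 h (0.72 ± 0.10, where log2(TPM + 1) changed by 0.03, not called). Its targets Abca1, Abcg1 and Mylip stayed under the filter throughout.

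The 8 fatty acid enzymes were mostly lower from 36 h on. At 12 h versus 0 h 3 were higher and 2 lower, near the shares of all tested genes, 25.3% and 27.6%. At 24 h versus 12 h 5 were higher and 0 lower, beside 19.1% and 22%. At 36 h versus 24 h 7 were lower and 0 higher, beside 39% and 34.1%. Of the 19 mevalonate and sterol enzymes 11 were higher and 3 lower at that step. At 72 h versus 24 h all 8 fatty acid enzymes were lower, beside 45.6% of all tested genes. The median log2 change of the 8 was -3.08, beside -2.40 for the 19 mevalonate and sterol enzymes and -0.15 for all tested genes. Their summed level was 1867, 1921 and 1884 CPM at 0 h, 2004, 2384 and 2242 at 12 h, 3151, 4228 and 3892 at 24 h, 1852, 2156 and 1828 at 36 h, 767, 709 and 1066 at 48 h, and 306, 349.8 and 351 at 72 h.

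Fasn, the fatty acid synthase (chr11:120805846-120824547, GRCm38, minus strand), was level over the first 12 h and peaked at 24 h. It had 275, 283 and 280.1 CPM at 0 h, 284, 283 and 285 at 12 h, 665, 584 and 584 at 24 h, 226, 179.8 and 264 at 36 h, 79.8, 68.5 and 106 at 48 h, and 37.1, 49.6 and 43.4 at 72 h. The libraries at 0 and 12 h overlapped, those at 24 h were all above them, and those at 36 h were all below them. Its log2 change was 0.02 ± 0.14 at 12 h versus 0 h (adjusted p = 0.914), 1.11 ± 0.14 at 24 h versus 12 h and -1.45 ± 0.14 at 36 h versus 24 h. Acly and Acaca supply its substrates, acetyl-CoA and malonyl-CoA. Both were highest at 0 h, and their log2 changes at 72 h versus 0 h were -1.72 ± 0.15 for Acly and -3.97 ± 0.15 for Acaca.

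Scd2, a desaturase that makes monounsaturated fatty acids, had 710.3 ± 157 TPM at 24 h, not apart from the 748 ± 28.5 TPM of Fdps: its TPM were 529.6, 814.5 and 787 in the 3 libraries, below Fdps in replicate 1 and above it in the other 2. In CPM it had 767, 802 and 779.9 CPM at 0 h, 935, 1286 and 1139 at 12 h, 1553, 2544 and 2276 at 24 h, 945, 1228 and 862 at 36 h, 288, 203 and 415 at 48 h, and 69.8, 62.2 and 66.5 at 72 h. The libraries spread widely at 24 h, where the lowest was still above all at 12 h, and those at 72 h were the lowest of the course. Its log2 change was 1.44 ± 0.21 at 24 h versus 0 h and -5.00 ± 0.24 at 72 h versus 24 h, the largest fall of any member in that comparison. Its relative Scd1 moved less, with 229.6 ± 1.87 CPM at 0 h, 354 ± 67.5 CPM at 24 h and 84.4 ± 8.25 CPM at 72 h. The 2 genes are close paralogs, and reads shared between them may have been split by the authors' counting.

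Elovl6, which elongates palmitate, was already lower at 12 h. It had 44.7, 50.5 and 48.7 CPM at 0 h, 20.98, 20.8 and 23.4 at 12 h, 27.4, 27.0 and 24.5 at 24 h, 15.8, 9.10 and 14.5 at 36 h, 5.89, 4.82 and 4.64 at 48 h, and 2.41, 2.14 and 1.74 at 72 h. Every library at 0 h was above every later one, and the log2 change was -1.14 ± 0.13 at 12 h versus 0 h and -4.51 ± 0.17 at 72 h versus 0 h. The desaturases Fads1 and Fads2 act on polyunsaturated fatty acids. They were highest at 24 h, with log2 changes of 1.19 ± 0.14 and 0.92 ± 0.12 at 24 h versus 0 h and of -2.35 ± 0.15 and -2.52 ± 0.13 at 72 h versus 24 h.

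Over the whole course, 72 h versus 0 h, 11 of the 34 members were higher and 18 lower, beside 43.3% and 46.5% of all tested genes. As 89.8% of all tested genes were called in one direction or the other, the 29 calls say little about the members. In log2(TPM + 1) with library medians subtracted the counts were 18 higher and 13 lower, near the shares of all genes in that fit, 5049 and 3394 of 9525. Without centring they were 0 higher and 32 lower, beside 501 and 8661 of 9525. Among the 11 were Insig1, Fdft1, Nr1h2 and Hmgcs1 (1.87 ± 0.16, and -1.93 in log2(TPM + 1) without centring). All 8 fatty acid enzymes were among the 18, with a median log2 change of -2.20, while the 19 mevalonate and sterol enzymes had 8 higher and 7 lower and a median of 0.13.

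Of 52 further genes of these pathways, all tested, 12 were higher at 12 h versus 0 h, near the 25.3% of all tested genes. There 21 were lower, beside 27.6%. At 24 h versus 0 h 17 were higher, near the 32.1% of all tested genes, and 28 lower, beside 33.9%. The median log2 change of the 52 at 24 h versus 0 h was -0.26, beside 1.69 for the 34 members and 0.03 for all tested genes. Most genes of the branches that use farnesyl pyrophosphate for other products were lower: of 12 genes of ubiquinone, dolichol and protein prenylation 2 were higher and 8 lower at 24 h versus 0 h. The 2 were Fntb, the beta subunit of farnesyltransferase, with 1.96 ± 0.11, and Pggt1b, a subunit of an enzyme that attaches geranylgeranyl groups to proteins, with 0.83 ± 0.10. Pdss1, which makes the side chain of ubiquinone, was -1.39 ± 0.12 at 24 h versus 0 h and -4.92 ± 0.20 at 72 h versus 0 h. At 36 h versus 24 h 11 of these 12 were lower and 0 higher, beside 39% and 34.1% of all tested genes.

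Among 12 further regulators of SREBP and sterol sensing, 7 were higher and 5 lower at 24 h versus 0 h, beside the 32.1% and 33.9% of all tested genes. Rnf139, a ubiquitin ligase of the endoplasmic reticulum, was 1.29 ± 0.10, and Erlin1, a membrane scaffold that takes part in the breakdown of sterol enzymes, was -2.15 ± 0.09. Of 12 further genes of sterol transport and sensing 4 were higher and 4 lower, near the shares of all tested genes. Lpcat3, which puts polyunsaturated fatty acids into phospholipids and is a liver X receptor target, rose to a mean of 292 CPM at 24 h, against 56.8 CPM at 0 h (2.36 ± 0.09). Of 16 further fatty acid genes 4 were higher and 11 lower, with Mid1ip1, an activator of acetyl-CoA carboxylase, at 2.22 ± 0.10 and the elongase Elovl5 at -2.08 ± 0.12. Npc2, which hands cholesterol out of lysosomes, rose at 36 h versus 24 h by 2.31 ± 0.12.

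With SA no member was called at 12 h by edgeR, beside 0.0162% of tested genes higher and 0.364% lower, 47 genes in all. Of the 34 members, 30 had a negative log2 change, and in 16 all 3 libraries with SA lay below all 3 without it, while in 0 all 3 lay above. Over all tested genes the libraries with SA lay below in 9.86% and above in 14.4%. The median log2 change of the 34 was -0.18, beside 0.02 for all tested genes. The 19 mevalonate and sterol enzymes summed to 775 to 832 CPM with SA, against 849 to 962 CPM without, and the 8 fatty acid enzymes to 1570.0 to 1818 CPM, against 2004 to 2384 CPM. The 8 erythroid markers also lay lower, at a summed 6514 to 7378 CPM with SA and 8655 to 9421 CPM without, and their part in the result was not tested. Of the 52 further genes 0 were called, 10 lay above without overlap and 6 below.

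The largest difference was that of Scd2. It had 580.2, 772 and 685 CPM with SA and 935, 1286 and 1139 CPM without, without overlap, a log2 change of -0.72 ± 0.20 with an adjusted p of 0.211. The next was Mvk. It had 4.21, 4.14 and 4.06 CPM with SA and 5.92, 5.85 and 5.79 CPM without, also without overlap, a log2 change of -0.50 ± 0.13 with an adjusted p of 0.124. Srebf1 had 63.9, 77.8 and 63.3 CPM with SA and 85.04, 91.5 and 81.3 CPM without, and its log2 change was -0.33 ± 0.11 (adjusted p = 0.368). Fdps, which had 108, 109.7 and 114 CPM with SA and 133, 137 and 133 CPM without, was -0.28 ± 0.12 (adjusted p = 0.709).

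At an unadjusted p under 0.05, edgeR found 6 of the 34 members lower with SA, beside 759 of all tested genes. DESeq2 called 1 member, Mvk (adjusted p = 0.0151), among 150 genes. A fit of the compared libraries alone, which leaves out the spread of the other groups, called 5 lower, among 465 of 11115 genes. They were Fdps, Mvk, Scd2, Srebf1 and Fads2. The fit with replicate number as a block called 0, among 84 of 12360 genes, with an adjusted p for Mvk of 0.071. No call with SA thus held in every fit, and a p above the threshold does not show that the levels were equal.

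**Figure D5:**
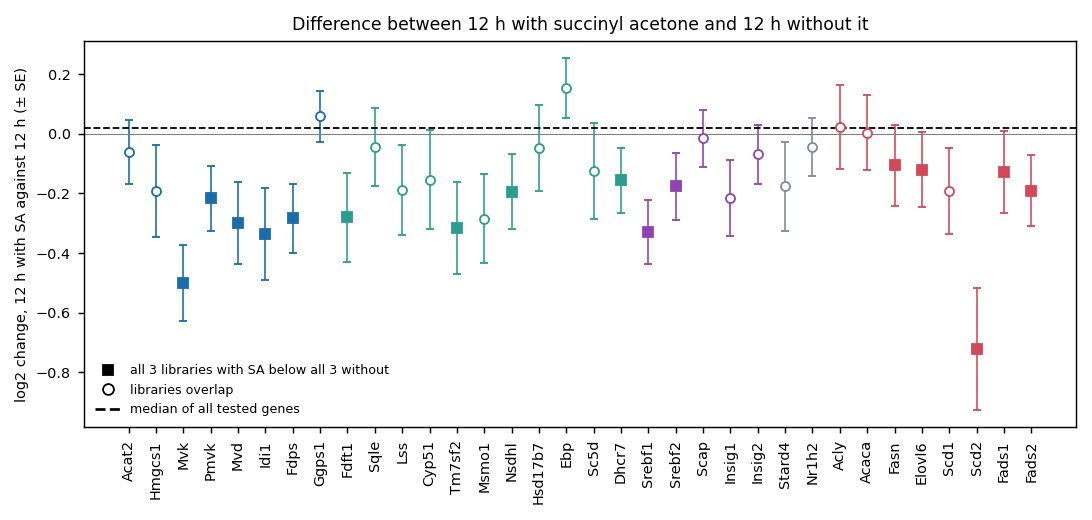
Log2 change ± SE of each of the 34 tested members between 12 h with SA and 12 h without it, in the order of their roles (mevalonate, sterol, SREBP system, transport, fatty acid; colours). Filled squares mark the 16 members whose 3 libraries with SA lay below the 3 without; the dashed line is the median of all tested genes, 0.02, and Scd2 and Mvk lie lowest.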

How the data were processed

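RNA-seq was analysed from the 2 gene tables that the authors deposited, 1 of estimated counts and 1 of TPM, each with 22483 genes in 21 libraries. The submitters' processing notes name kallisto, STAR 2.5.3a, DESeq2, GRCm38.p5 and mm10, while the tool behind each table is not given in the sources used here. In the table of estimated counts the authors deposited, 78.5% of values were whole within 1e-06, and all were rounded before testing. The TPM the authors deposited are relative to transcript length and to the total of all genes.

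Genes were kept with filterByExpr (minimum count 10). The estimated counts were TMM-normalised and tested with edgeR 4.0.16 (quasi-likelihood test, R 4.3.3) in 1 model of the 7 groups, with Benjamini-Hochberg adjustment over the 12360 tested genes and a threshold of 0.05. The SE of a log2 change is its size divided by the square root of F, an approximation. The biological coefficient of variation was 11.6%. Totals of 16695756 to 39316031 counts per library set the precision, and p-values measure the spread among 3 libraries per group from 1 line, which the design text calls biological replicates.

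Alternatives were DESeq2 1.42.0 size factors, DESeq2 itself, a fit of the compared libraries alone, globin genes left out of library sizes, all genes without a filter, replicate number as a block, leaving out each library, and limma 3.58.1 on log2(TPM + 1) or log2(TPM + 0.1), with library medians subtracted or not. As a pairing check, deviations of same-numbered libraries from their group means were correlated over 5673 genes. Every pair exceeded 0.1 for 12 h versus 0 h (lowest r 0.105), 24 h versus 12 h (0.385), 48 h versus 36 h (0.188), 72 h versus 48 h (0.387) and SA against 12 h (0.438), and not for the other comparisons. The edgeR procedure was tested on simulated data with 200 changed genes.

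The members and lists were chosen with earlier results of these data known. Named genes were the members the results turn on, and up to 3 called genes with the largest changes per further list and comparison. Gene positions are from GENCODE M21 and upstream sequences from the RefSeq promoter table, both on GRCm38. Single values of some cell type markers are not reported here.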

Additional observations from a re-analysis of the deposited data

How the results depend on the processing

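Of 459 counts of called members under the alternatives, 424 stayed within 1.5 times those reported. The others came mostly from TPM without centring. In all 3 such limma fits 0 members were higher at 36, 48 and 72 h, each against the time before, at 72 h versus 24 h and at 72 h versus 0 h, with 33 lower at 36 h versus 24 h and 32 lower at 72 h versus 0 h. Of the 9525 genes in log2(TPM + 1), 8486 were lower at 36 h versus 24 h and 8661 at 72 h versus 0 h. At 12 h versus 0 h, log2(TPM + 0.1) gave 17 calls, 15 higher and 2 lower, beside 3724 of 9525 genes called. TPM with no level filter gave 19, of which 16 were higher, beside 5676 of 16772 genes called. With library medians subtracted, 18 members were higher at 72 h versus 0 h and 3 at 72 h versus 48 h, beside 5049 and 4034 of 9525 genes. DESeq2 and its size factors in edgeR gave 2 higher at 72 h versus 48 h, beside 3786 and 3750 of 12360 genes. With SA, the compared libraries alone gave 5 calls, all lower, and DESeq2 1, also lower, among 465 of 11115 and 150 of 12360 genes called. The cause of these differences was not tested, other than that uncentred TPM carry the shift of all genes given above. The log2 changes that reversed did so in uncentred TPM: at 36 h versus 24 h to -0.83 for Fdps, -1.28 and -1.30 for Srebf2, -1.10 and -1.11 for Insig1 and -0.77 and -0.85 for Insig2 (pseudocounts 1 and 0.1). At 48 h versus 36 h it was -0.31 for Insig1, and at 72 h versus 48 h -0.51 and -0.52. For Ggps1 it was -1.24 and -1.32 at 72 h versus 24 h, and at 72 h versus 0 h it was -1.93 and -2.09 for Hmgcs1 and -0.47 and -0.55 for Fdft1. With replicate number as a block, members called were 30, 28, 27, 32 and 29 over the 5 steps, 32 at 24 h versus 0 h, 34 at 72 h versus 24 h, 29 at 72 h versus 0 h and 0 with SA. Of 12360 tested genes this fit called 6801, 5392, 9198, 6348 and 7470 over the steps. In the same order it called 8342, 10757, 11172 and 84 in the other comparisons. Leaving out 1 library at a time gave 25 to 28 calls at 12 h versus 0 h (21 to 24 higher, 4 lower), 27 to 28 at 24 h versus 12 h, 24 to 26 at 36 h versus 24 h (12 to 14 higher), 31 to 33 at 48 h versus 36 h, 29 to 30 at 72 h versus 48 h (1 to 2 higher, 2 without replicate 1 at 48 h) and 0 with SA, where all genes called numbered 11 to 31 in place of 47. These fits tested 12542 to 12703 genes. Over the 5 steps they called 5869 to 5960, 4072 to 4503, 8561 to 8960, 5336 to 6103 and 6832 to 7215 of them. The 3 untested genes were at or under the count filter, so no change in them could be detected at this depth.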

Other observations

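Among 7169 tested genes outside all lists with a mean of at least 10 CPM, the group means that ran most like those of the 19 mevalonate and sterol enzymes were those of Mki67, a marker of dividing cells, with a Pearson r of 0.9971 over the 7 groups. Next were Fbxw5 (r of 0.9939) and Cit, a kinase of cell division (0.9842). Isca2 (0.9823), Slc38a5 (0.9817), Cdk19 (0.9815), the centromere gene Cenpq (0.9804), Wbp1 (0.9784), Gm42715 (0.9773) and Yars (0.977) followed. All of these points share the same 21 libraries and their scaling, so the values are a description. The genes were picked for a high r out of the 7169, and rank 25 still had 0.9554. Whether they share a function was not tested.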
